A study of Mus musculus with 8 samples.

Results

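N6-methyladenosine (m6A) peaks on the mRNAs of 8 families of RNA-handling proteins were compared between fed and starved mouse embryonic fibroblasts (MEFs). The members were all peaks whose gene symbol starts with Hnrnp, Srsf, Ddx, Dhx, Cpsf, Cnot or Celf, or with Rbm followed by a digit, with Rbm15 and Rbm15b left out. They were 481 of the 38705 peaks in 4 lists, and lay on 113 of 9779 gene names. Peaks that overlapped between libraries were joined into regions, and 257 of the 21168 merged regions belonged to members.

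MEFs are primary cells grown from embryos, here from wild type C57BL/6 mice at 13.5 days post-coitum and used at passages 5 to 6. Control cells were untreated, and starved cells spent 2 h in nutrient-deprived medium. In MeRIP-seq an antibody against m6A pulls down RNA fragments (the IP library), which are set against input RNA that was not pulled down. The 8 samples were an IP and an input from each of 2 control and 2 starved replicates, and the question was how m6A on mRNAs changes upon nutrient deficiency. The study calls the MeRIP replicates biological, and neither it nor the labels say whether they came from separate embryos or cultures, so part of the spread between them may be technical.

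The families cover most steps of an mRNA's life. Hnrnp proteins coat nascent RNA and often repress splice sites, whereas Srsf proteins are serine- and arginine-rich factors that mostly promote exon inclusion. Rbm proteins are a loose group named for their RNA recognition motifs, and many are splicing factors. Celf proteins bind GU-rich elements and control splicing and mRNA decay. Ddx and Dhx proteins are RNA helicases named for a motif in their ATPase core. Cpsf proteins recognise the polyadenylation signal at which the 3′ end is cut, and Cnot proteins form the CCR4-NOT complex, which shortens poly(A) tails. m6A itself is placed by the METTL3 complex mainly at adenosines in a GGAC-like context, often near stop codons and in long exons.

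The sequences of the regions on which the comparisons turn are shown first, as 100 coding bases each, written 5′ to 3′ on the transcript strand from RefSeq GRCm38.p6 (mm10), with GGAC in capitals. Within each region the window with the most GGAC was taken, so the number of motifs in a window is fixed by that choice. These windows were chosen after the values were seen. Dhx8 and Ddx24 held the strongest peaks of the families, Rbm12b1, Rbm12b2 and Dhx40 were lower after starvation, Dhx15 was nearly level, and Dhx38 and Cpsf2 were called in both libraries of 1 group only.

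Dhx8, chr11:101738130-101738229, plus strand: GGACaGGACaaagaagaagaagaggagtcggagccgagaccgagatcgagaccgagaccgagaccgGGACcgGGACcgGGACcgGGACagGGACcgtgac
Ddx24, chr12:103424002-103424101, minus strand: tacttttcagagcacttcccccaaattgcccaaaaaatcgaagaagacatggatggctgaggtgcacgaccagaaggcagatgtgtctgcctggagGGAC
Rbm12b1, chr4:12146012-12146111, plus strand: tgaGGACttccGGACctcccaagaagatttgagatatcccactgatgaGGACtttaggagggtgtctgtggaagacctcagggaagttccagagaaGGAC
Rbm12b2, chr4:12095119-12095218, plus strand: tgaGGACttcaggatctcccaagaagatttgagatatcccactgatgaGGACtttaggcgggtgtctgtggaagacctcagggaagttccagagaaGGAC
Dhx40, chr11:86771059-86771158, minus strand: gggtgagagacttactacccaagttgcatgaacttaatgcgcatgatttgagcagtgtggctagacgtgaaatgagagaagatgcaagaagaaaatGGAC
Dhx15, chr5:52184636-52184735, minus strand: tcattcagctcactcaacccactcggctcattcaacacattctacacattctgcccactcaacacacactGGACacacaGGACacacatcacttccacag
Dhx38, chr8:109553400-109553499, minus strand: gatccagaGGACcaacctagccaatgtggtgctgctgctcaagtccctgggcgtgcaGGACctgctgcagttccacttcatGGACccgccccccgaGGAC
Cpsf2, chr12:101989928-101990027, plus strand: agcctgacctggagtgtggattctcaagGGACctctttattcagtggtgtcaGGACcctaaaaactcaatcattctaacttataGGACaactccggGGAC

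In Dhx8, which encodes a spliceosomal helicase that releases the spliced mRNA, the 432 bp of exon 6 held 11 GGAC, or 25.5 per kb. The printed window carries 7 of them, mostly in a repeat of GGAC followed by 2 other bases. Dhx38, which encodes another spliceosomal helicase, had 5 GGAC in the 209 bp of exon 20 (23.9 per kb). The median over the 230 member regions that could be placed on a coding transcript was 3.97 GGAC per kb, and the Ddx24 region, with 4 GGAC in 899 bp (4.45 per kb), lay near it. A dense motif was thus not shared by the strongest regions. The windows of Rbm12b1 and Rbm12b2 are nearly the same sequence, and differ in their count of GGAC, with 4 and 3.

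No list gives reads or depths, so the depth of sequencing behind each peak is unknown, and a transcript without a peak may still carry m6A. The shortest peak in the lists was 200 bp, and the lowest false discovery rate given by the authors for any peak was 5.56%. Of 15 fibroblast marker genes 11 had a peak, with 8 to 10 in each library, among them Col1a2, Fn1, Pdgfrb and Thy1, whereas Col1a1, Vim, Dcn and Lum had none. Markers of other cell types also had peaks in places: 2 of 5 epithelial, 2 of 4 endothelial, 1 of 4 immune and 4 of 4 neural markers. Their part in the results below was not tested.

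Every library listed a similar number of member peaks. Control IP 1 held 122, control IP 2 held 125, starved IP 1 held 116 and starved IP 2 held 118. Both starved libraries lay below both control libraries, by 6.5 peaks in the mean (exact permutation p = 0.333, two-sided as all tests here, n = 2 per group). This is the smallest p that 2 libraries against 2 allow, so no comparison between the groups here could reach 0.05. As a share of each list the members made up 1.21% and 1.27% in control and 1.19% and 1.31% after starvation, and the groups overlapped. Member peaks fell on 81, 84, 84 and 74 genes in the same order of libraries.

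The strength of a peak is given by the authors as fold enrichment, the ratio of IP signal to its local input background. The median over member peaks was 12.5 and 11.4 in control and 11.3 and 12.5 after starvation. These values overlapped, with a difference in mean log2 fold enrichment of -0.00937 (exact permutation p = 0.667, n = 2 per group). For all other genes the medians were 12.2 and 12.3 in control and 14.6 and 14.7 after starvation, so both starved values lay above both control values, by 0.26 on the log2 scale (exact permutation p = 0.333). In bulk RNA a shift in the makeup of the cells and a shift within cells cannot be told apart. Members minus other genes was 0.038 and -0.11 in control and -0.37 and -0.24 after starvation, a difference of -0.27 between the groups (exact permutation p = 0.333, n = 2 per group). This comparison was added after the values were seen, and among peaks with a false discovery rate under 20% it turned to 0.020.

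**Figure D1:**
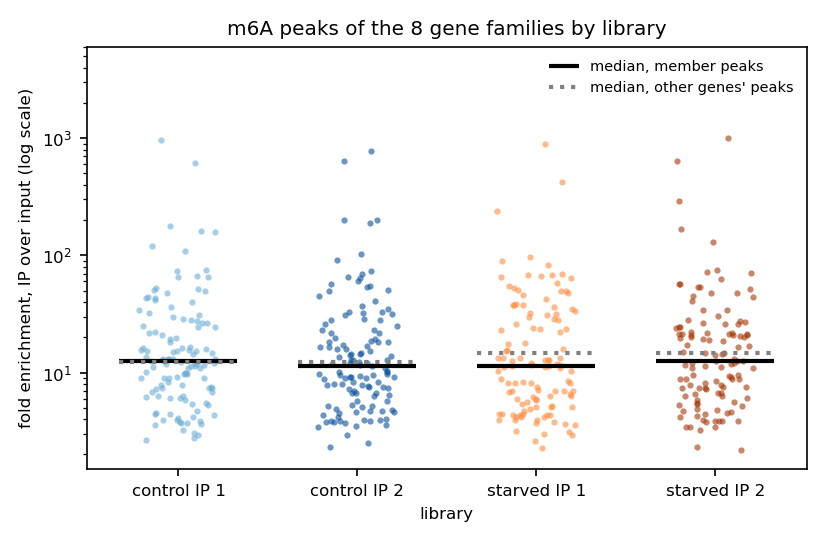
Fold enrichment of each member peak (points, log scale) in the 4 IP libraries. Black lines mark the median of member peaks, between 11.3 and 12.5, and dotted lines the median of other genes' peaks, which is 12.2 and 12.3 in control and 14.6 and 14.7 after starvation.

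Peaks also carry a score, which the authors' caller sets from the p-value as −10 log10(p). Of the 8299 peaks with a score of 3100 or more 96.4% had exactly 3100, and the highest score was 3233.06. The share of member peaks with 3100 or more was 22.1% and 18.4% in control and 28.4% and 24.6% after starvation. Among other genes it was 16.9% and 13.2% in control and 28.5% and 27.8% after starvation. Both groups of genes had larger shares in both starved libraries, by 6.25 percentage points for members and 13.1 for other genes (exact permutation p = 0.333 each, n = 2 per group).

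The families differed in how strongly and how often their mRNAs were enriched. The Ddx helicases contributed 118 peaks on 27 genes, the Rbm genes 114 peaks on 31 genes, the Dhx helicases 87 peaks on 14 genes, and the Hnrnp genes 56 peaks on 15 genes. The smaller families were Srsf with 36 peaks on 8 genes, Cnot with 30 peaks on 9 genes, Cpsf with 29 peaks on 5 genes and Celf with 11 peaks on 4 genes. Per gene this was most for Dhx (6.21 peaks over the 4 libraries) and least for Celf (2.75). Every Dhx gene had more than 1 region, and 11 of the 14 had a peak in all 4 libraries, against 44 of 113 (38.9%) over all members. These peaks need not lie in the same region of the gene. By region, 6 of 46 Dhx regions (13.0%) were called in all 4 libraries, against 12.1% of member regions and 10.7% of all regions. Of the 31 Rbm genes 9 had a peak in all 4 libraries, and 8 in 1 library only.

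Of the 257 member regions 133 (51.8%) had a peak in 1 library only, 58 in 2, 35 in 3 and 31 (12.1%) in all 4. Over all 21168 regions the shares for 1 and 4 libraries were 56.2% and 10.7%, so the members were called about as repeatably as the rest. The share in all 4 libraries ran from 4.55% of Cnot regions to 18.2% of Ddx regions. Control IP 1, control IP 2, starved IP 1 and starved IP 2 held 28, 36, 34 and 35 of the regions seen in 1 library. A region seen once could still be strong, and 16 of the 133 exceeded 50-fold. The highest was in exon 2 of Dhx38 (chr8:109562444-109562690), with 289-fold in starved IP 2 and no peak elsewhere, followed by the 5′UTR of Ddx27 at 166-fold, also in starved IP 2. Ddx27 is a helicase of ribosome assembly.

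**Figure D2:**
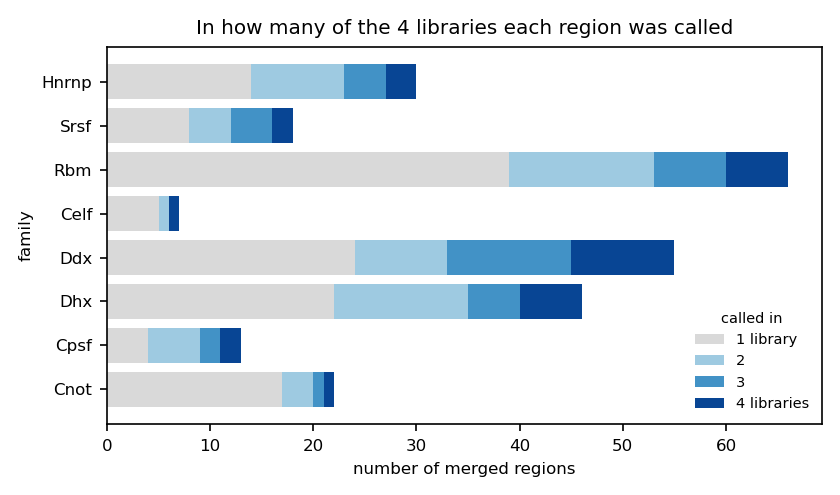
Number of merged regions of each family (bars) by the number of libraries in which they were called (shades). Ddx has the most regions in all 4 libraries, 10 of 55, and Cnot has 17 of 22 in 1 library only.

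By family, the median fold enrichment was lowest in Hnrnp mRNAs in each of the 4 libraries, with 6.80 and 5.195 in control and 5.89 and 6.06 after starvation. Several Hnrnp regions, among them those of Hnrnpa1, Hnrnpa3 and Hnrnpf, have near-identical copies elsewhere in the genome, so their values are uncertain. Srsf mRNAs had 9.65 and 10.4 in control and 6.67 and 8.80 after starvation, so both starved values lay below both control values. Rbm mRNAs had 12.7 and 12.8 in control and 18.3 and 19.0 after starvation, with the groups apart in the other direction. Cpsf mRNAs were also apart in that direction, at 9.85 and 12.3 in control and 17.0 and 22.2 after starvation. On the log2 scale the differences were -0.38 for Srsf, 0.52 for Rbm and 0.79 for Cpsf (exact permutation p = 0.333 and adjusted p = 0.889 each, over 8 families, n = 2 per group). The Srsf difference was -0.18 without starved IP 1 and -0.58 without starved IP 2. Among peaks with a false discovery rate under 20% the Rbm difference turned to -0.25. For the peaks of all other genes the difference was 0.26, also with the groups apart. Of the 6 Rbm regions called in all 4 libraries 3 were lower and 0 higher, against 18% and 22.9% over all regions. The 3 lower regions, on Rbm12b1, Rbm12b2 and Rbm6, each have a near-identical copy in the genome. Those of Rbm12b1 and Rbm12b2 are copies of each other, so the 3 are not independent. Of the 66 Rbm regions 39 were called in 1 library only. Cpsf rested on 9 and 7 peaks in control and 8 and 5 after starvation.

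The other families overlapped between the groups. Ddx mRNAs had 10.9 and 13.1 in control and 11.9 and 17.2 after starvation. Dhx mRNAs had 21.9 and 12.8 in control and 32.3 and 13.7 after starvation, where both first replicates were high. Cnot mRNAs had 13.4 and 6.68 in control and 7.01 and 7.86 after starvation. Celf rested on 2 or 3 peaks per library and ranged from 14.1 to 37.5.

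To ask where the peaks lie, each peak centre was placed on a coding transcript of the gene. Regions of the same gene could be placed on different transcripts, and a position is that on the transcript used. In the mean of the 4 libraries 6.74% of placed member peaks were in the 5′UTR, 51.7% in the CDS (coding sequence), 13.8% no more than 100 nt from the stop codon and 27.8% further down the 3′UTR. For other genes the shares were 4.74%, 46.0%, 12.6% and 36.7%. The 3′UTR share of members was lower than that of other genes in 4 of 4 libraries, by 8.95 ± 2.53 percentage points (SD, n = 4). The CDS share was higher in 4 of 4, by 5.68 ± 2.88 (exact sign-flip permutation p = 0.125 and adjusted p = 0.225 for both, over 9 quantities). The value 0.125 is the smallest that 4 libraries allow. Here and below, the SD and this p run over libraries and do not measure the spread between genes. The genes also differed in their transcripts, since member transcripts with a peak had a median 3′UTR of 911 nt, against 1514 nt in other genes (means of the library medians). If peaks fell evenly along their own transcripts, 29.8% of member peaks and 37.4% of other peaks would lie in the 3′UTR. The ratio of the observed to this even share was 0.933 and 0.981.

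Near the stop codon both sets were above even placement by similar factors, 2.19 for members and 2.16 for other genes. Member peaks lay in shorter exons. In each library the median length of the exon that held the peak centre was 484 to 803 bp for members and 1337 to 1461 bp for other genes. Internal exons held 10.1 ± 2.81 percentage points more of the member peaks, in 4 of 4 libraries (SD, n = 4; exact sign-flip permutation p = 0.125, in a set of 3 quantities added after the values were seen). Both edges of the peak sat on exon borders for 19.96% of member peaks and 11.7% of other peaks, so the extent of such a peak followed exon borders. The borders were not required to belong to the same exon. No position share differed between control and starved libraries beyond their spread, with differences from -2.62 points (3′UTR) to 2.12 points (stop codon; exact permutation p of 0.667 or more).

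The GGAC motif was found within 200 bp of spliced sequence at the centre of 58.4% and 63.2% of member peaks in control and 64.0% and 57.1% after starvation. Other genes had 62.0% to 64.6%, and members were lower in 4 of 4 libraries, by 2.94 ± 3.39 percentage points (SD, n = 4; exact sign-flip permutation p = 0.125, adjusted p = 0.225), which is smaller than its spread.

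The families were unlike in position. Of the Celf regions that could be placed, 6 of 6 were in the 3′UTR. The CDS held 23 of 39 Dhx regions (59.0%), 15 of 26 Hnrnp regions (57.7%) and 33 of 60 Rbm regions (55.0%), but only 5 of 16 Srsf regions (31.3%). Ddx regions were near the stop codon more often than the others, with 9 of 51 (17.6%), and Srsf regions in the 5′UTR, with 3 of 16 (18.8%). These shares rest on few regions and were not tested.

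**Figure D3:**
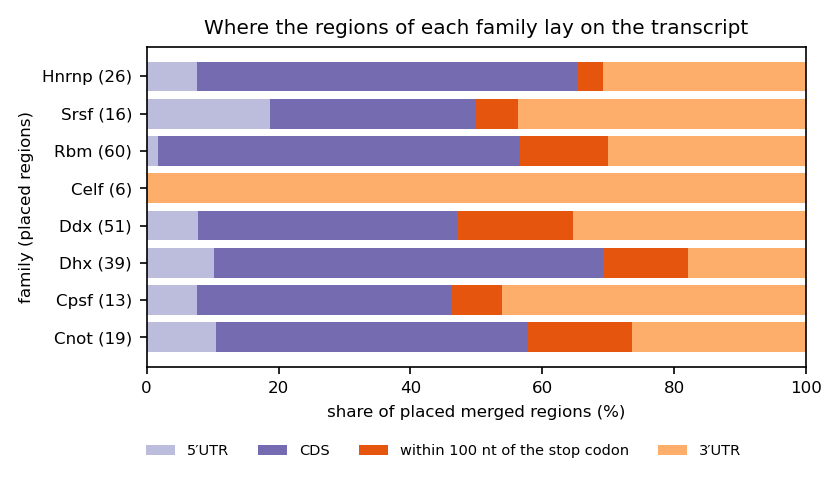
Share of placed merged regions of each family (bars, %) in the 5′UTR, the CDS, the stop codon window (100 nt either way) and the 3′UTR. All 6 Celf regions are in the 3′UTR, and the CDS takes 59.0% in Dhx and 31.3% in Srsf.

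Within a gene, strong and weak regions stood side by side. Ddx24, a nucleolar helicase, had 5 regions. Its exon 2 region (chr12:103423699-103424597) had 618 and 785 in control and 887 and 1002 after starvation, and its geometric mean ranked 4 of the 2257 regions called in all 4 libraries. The other regions of Ddx24 had at most 19.98 in any library, and each lacked a peak in at least 1 library. In Dhx15, a helicase that takes spliceosomes apart, there were 6 regions, and the 4 that could be placed ran from the 5′UTR to the stop codon. Its exon 2 region had 26.4 and 33.1 in control and 37.9 and 21.7 after starvation, with the groups overlapping.

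Rbm33, which has the most regions of any member, showed the other extreme. It had 7 regions, and 6 of them were called in 1 library only. The exon 5 region (chr5:28338996-28339308) had 50.3 in control IP 1, no peak in control IP 2, and 23.3 and 19.5 in the starved libraries. Cnot1, the scaffold of the CCR4-NOT complex, had 6 regions, each in 1 library only, with fold enrichments from 3.15 to 15.7. Celf2 had 3 regions in its 3′UTRs, each again in 1 library. Cpsf6, a subunit of the cleavage factor that guides poly(A) site choice, had 4 regions. Its stop codon region (chr10:117355738-117356124) was steady at 43.5 and 32.5 in control and 46.3 and 40.5 after starvation. That stop codon belongs to the transcript used, which has 9 exons, whereas the other Cpsf6 regions were placed on a transcript with 11 exons.

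**Figure D4:**
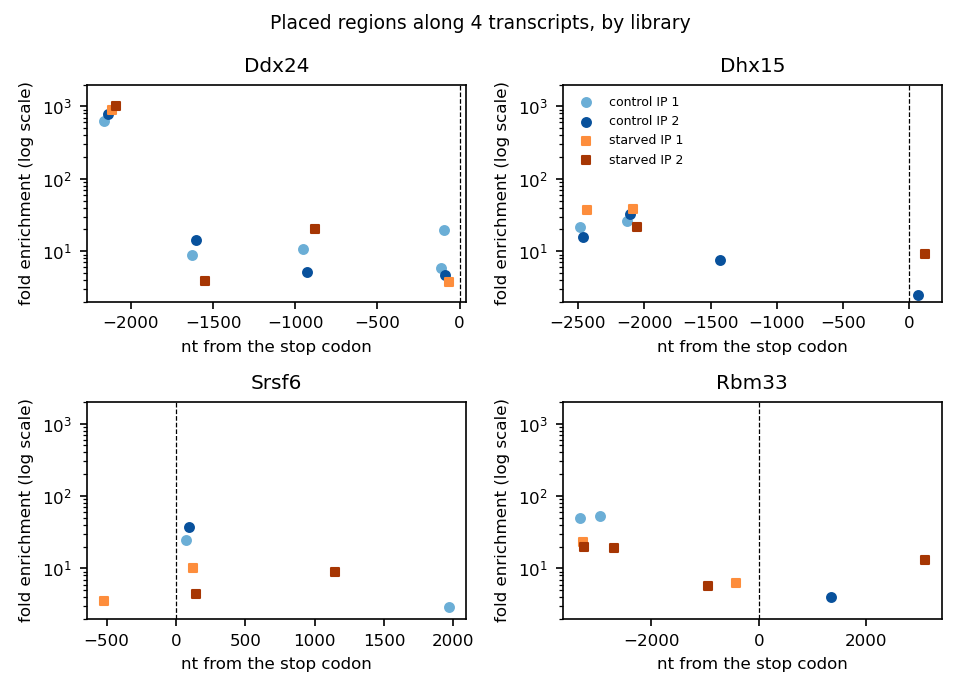
Fold enrichment (log scale) of the placed regions of Ddx24, Dhx15, Srsf6 and Rbm33 against the distance of the region's centre from the stop codon (dashed line, nt), with the libraries shifted slightly sideways. The exon 2 region of Ddx24 stands at 618 to 1002 in every library, while 6 of the 7 Rbm33 regions have a single point.

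Which regions were seen in only 1 of the groups was counted next. Regions called in both starved and neither control library numbered 8 of 257 (3.11%), against 3.20% over all regions. Regions called in both control and neither starved library numbered 13 (5.06%), against 4.15% over all regions. Both shares were close to those of all regions.

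The starved-only regions were mostly weak. The highest mean was in the 3′UTR of Dhx33, with 6.96 in starved IP 1 and 27.1 in starved IP 2. Ddx1, a helicase of the tRNA ligase complex, had 23.6 and 4.17 near its stop codon, and Ddx39b, a helicase of splicing and mRNA export, had 7.56 and 10.9 in its 5′UTR. The other starved-only regions were on Rbm42, Dhx38, Ddx47, Hnrnpa1 and Rbm5, with 3.77 to 14.7, and that of Hnrnpa1 has 9 near-identical copies elsewhere in the genome. The replicates of these regions differed widely, and Rbm5, a splicing regulator, was among the closest with 5.05 and 5.35.

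The control-only regions included stronger ones. Dhx36, which unwinds G-quadruplexes, had 120 in control IP 1 and 15.3 in control IP 2 over its first exon (chr3:62506718-62506934), and Dhx16, a spliceosomal helicase, had 65.7 and 9.18 over exon 5. Rbm28 had 39.9 and 11.98. In these the value was several times higher in control IP 1. Rbm27, with 12.5 and 13.5 in exon 5, and Ddx23, with 7.22 and 8.38 in exon 13, were closer between replicates. Cpsf2, a subunit of the cleavage complex, had 13.1 and 8.99 over exon 8 (chr12:101989789-101990079). The rest were Rbm8a, Dhx37, Dhx30, Rbm25, Hnrnpul2, Hnrnpa2b1 and a further region of Cpsf2. Those of Rbm8a and Hnrnpa2b1 have a near-identical copy elsewhere in the genome.

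Levels can be compared in the 31 regions that were called in every library. They lay on 28 genes, with 19 regions in the CDS, 9 in the 3′UTR, 2 in the 5′UTR and 1 near a stop codon. Both starved values lay below both control values in 11 of them (35.5%), against 18% of all 2257 such regions. Both lay above in 3 (9.68%), against 22.9% of all. The median log2 difference was -0.43 over the 31 and 0.10 over all. Replicates of the 31 regions differed by a median of 0.45 (control) and 0.63 (starved) on the log2 scale, beside a median size of 0.60 for the difference between the groups. Starved IP 2 was the lowest library in 14 of the 31. With that library left out, which asks the remaining one alone to lie below both controls, 22 of 45 regions (48.9%) were lower against 31.8% of all regions, and without control IP 2 the median log2 difference of members was -0.19. The share of lower regions rests in part on repeated sequence: without the regions that have a near-identical copy in the genome, 6 of 26 (23.1%) were lower and 3 (11.5%) higher, and the median log2 difference was -0.18. Copies were looked for in member regions only. With each library scaled to its median over the 2257 regions, 12 member regions (38.7%) were lower and 2 (6.45%) higher, against 23.4% and 18.1% of all, and the median log2 differences were -0.64 and -0.11.

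**Figure D5:**
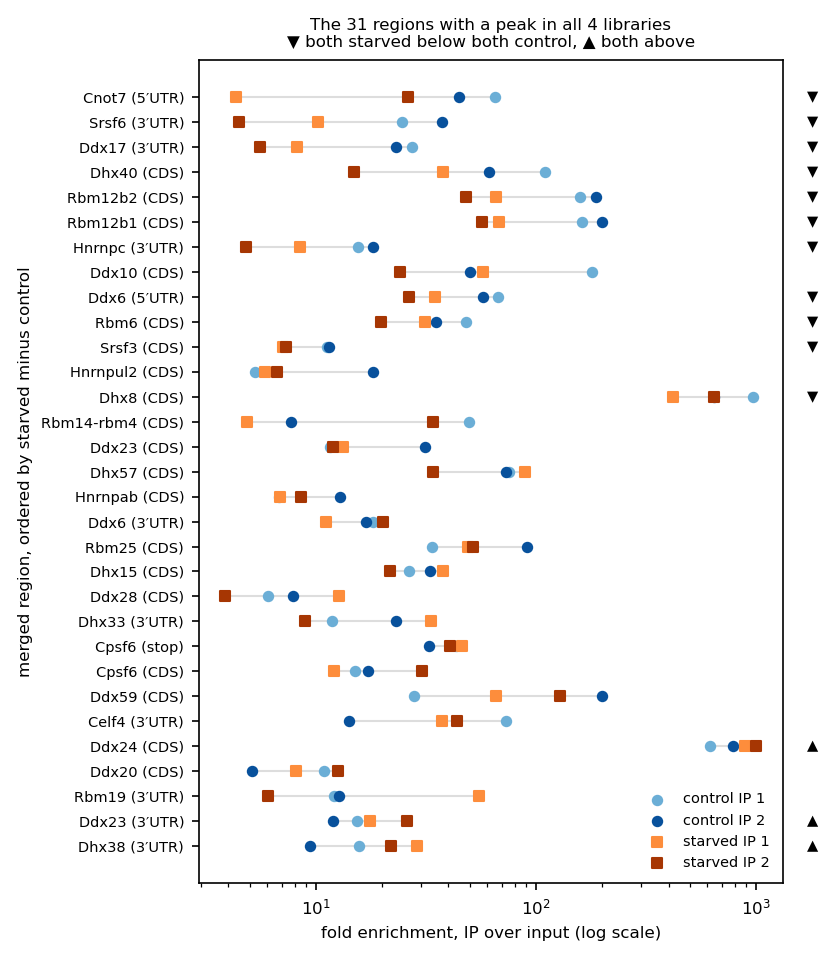
Fold enrichment (log scale) in each library of the 31 member regions with a peak in all 4, ordered by the difference in mean log2 fold enrichment. Triangles mark the 11 regions with both starved values (squares) below both control values (circles) and the 3 with both above. Ddx24 and Dhx8 stand apart, between 419 and 1002.

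The deadenylase gene Cnot7, which encodes a catalytic subunit of CCR4-NOT, had the largest difference. Its region in the 5′UTR, in the first exon of the transcript used (chr8:40510015-40510271), had 65.2 and 44.6 in control and 4.33 and 26.2 after starvation, a 5.07-fold lower geometric mean after starvation. The starved replicates themselves were 4.33 and 26.2, so the size of the difference is uncertain. The helicase gene Ddx6, whose product works with CCR4-NOT in mRNA decay and storage, had 66.9 and 57.5 in control and 34.6 and 26.6 after starvation over exon 2, in the 5′UTR (chr9:44607123-44607592), 2.05-fold lower. Its 3′UTR region overlapped between the groups, at 18.2 and 16.9 in control and 11.1 and 20.3 after starvation.

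The Hnrnp, Srsf and Rbm families, which hold most of the splicing regulators, had 11 regions in all 4 libraries, of which 6 (54.5%) were lower and 0 higher, against 18% and 22.9% over all regions. In 5 of the 6 the region has a near-identical copy, and without such regions 1 of 6 (16.7%) was lower, that of Srsf6. Srsf6 had 24.6 and 37.3 in control and 10.2 and 4.48 after starvation at the start of its 3′UTR (chr2:162934412-162935317), 4.47-fold lower, and has no near-identical copy. Srsf3 had 11.3 and 11.5 in control and 7.09 and 7.33 after starvation over its second exon (chr17:29036241-29036448). That peak spans the exon exactly in all 4 libraries, and 4 copies at up to 100% identity lie elsewhere in the genome. Hnrnpc had 15.6 and 18.1 in control and 8.50 and 4.81 after starvation in its 3′UTR, with 1 copy.

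Rbm12b1 and Rbm12b2 lie side by side on chromosome 4 and had parallel values. Rbm12b1 (chr4:12144002-12146265) had 162 and 200 in control and 67.5 and 56.7 after starvation, 2.91-fold lower. Rbm12b2 (chr4:12093115-12095435) had 158 and 188 in control and 65.7 and 48.0 after starvation, 3.07-fold lower. The sequences are up to 98.8% identical, a read that matches both cannot be assigned to either, and the parallel values are therefore not independent of each other. Rbm6, a splicing regulator with 1 copy elsewhere, had 47.9 and 35.0 in control and 31.2 and 19.8 after starvation.

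Among the helicases 4 of 16 regions (25%) were lower and 3 (18.8%) were higher, shares near the 18% and 22.9% of all regions. Dhx40 had 109 and 61.0 in control and 37.8 and 14.96 after starvation over exon 17 (chr11:86771030-86771258), and its stop codon region had 13.0 and 21.7 in control, no peak in starved IP 1 and 6.34 in starved IP 2. Ddx17, a helicase of splicing and microRNA processing, had 27.4 and 23.2 in control and 8.20 and 5.56 after starvation (chr15:79531578-79532518). That region was far into the 3′UTR of the transcript used, which has 12 exons. It lay upstream of coding sequence in the last exon of another transcript of the gene, with 13 exons. Dhx8 (chr11:101738130-101738561), ranked 6 of 2257 by level, had 970 and 645 in control and 419 and 640 after starvation, so that control IP 2 and starved IP 2 were almost equal.

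The higher regions were on Dhx38, Ddx23 and Ddx24. Dhx38 had 15.6 and 9.45 in control and 28.8 and 21.9 after starvation in its 3′UTR (chr8:109548017-109548483), 2.07-fold higher. Ddx23, a helicase of the U5 snRNP, had 15.4 and 11.9 in control and 17.5 and 26.1 after starvation in its 3′UTR, 1.58-fold higher, while its exon 6 region overlapped between the groups. Ddx24 was 1.35-fold higher. The remaining 17 regions overlapped between the groups, among them Dhx57, Hnrnpab, Rbm25, Ddx59 and both regions of Cpsf6.

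Copies of a region matter because reads may map to any of them. Of all member regions 25 (9.73%) had a copy of at least 95% identity over at least 90% of their length, among them regions of Hnrnpa1, Hnrnpa3, Hnrnpf, Rbm3 and Srsf10. Values of these regions are uncertain.

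RNA-handling genes outside the naming rule were listed beside the members, as splicing factors, RNA-binding proteins, 3′ end processing and deadenylation genes, and other RNA helicases. Of the 135 genes in the 4 lists 120 had a peak, in 312 regions. Of their 31 regions in all 4 libraries 12 (38.7%) had both starved values below both control values and 8 (25.8%) above, against 18% and 22.9% over all regions. The 3′ end processing and deadenylation list had 7 lower and 2 higher of 14. Pcf11, a factor of cleavage and termination, had 124 and 102 in control and 25.5 and 64.6 after starvation. Regions on Cstf2t, Rbbp6, Tob1, Tob2 and Wdr33 were also lower, and regions on Pan3 and Tnks1bp1 higher. Some of these differences were small, such as Tob2 with 9.44 and 9.10 in control and 8.86 and 8.04 after starvation. Tob2, Wdr33 and Tnks1bp1 each also had a region whose groups overlapped. The splicing factor list had 3 lower and 2 higher of 8, and the RNA-binding protein list 2 lower and 4 higher of 8. The list of other RNA helicases had 18 and 16 peaks in control and 8 and 5 after starvation. Of its 27 regions 4 were called in both control and neither starved library, and 0 in both starved and neither control library. The 4 were on Aqr, Helz, Helz2 and Upf1, which were named after their values were seen. Over all regions of the series these shares were 4.15% and 3.20%. The 4 lists together had 20 control-only and 6 starved-only regions of 312. These counts were not tested. Both starved counts of peaks were also below both control counts in the splicing factor list, with 43 and 42 in control and 40 and 32 after starvation, and in the RNA-binding protein list, with 63 and 55 against 47 and 48. The 3′ end processing list overlapped, with 34 and 40 against 43 and 39. The libraries as a whole listed 10103 and 9871 peaks in control and 9757 and 8974 after starvation.

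Of 145 annotated coding genes that fit the naming rule, 35 had no peak in any library. They include Ddx5 and Ddx3x, Hnrnpk and Hnrnph1, Srsf2 and Srsf7, Cpsf1 and Cpsf3, Cnot3 and Cnot9, and Celf5 and Celf6. Ddx4, Ddx25, Rbm20 and Rbm46 are also among them. The share without a peak over all annotated coding genes was not counted, so 35 of 145 cannot be called high or low.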

How the data were processed

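The 4 IP libraries of 8 samples have processed values, and the inputs entered as the background of the peak calls. According to the methods and sample labels, the authors aligned reads to mm10 with HISAT2 2.0.4 and called peaks in each IP library against its input with MACS2. The authors' deposited fold enrichment is the ratio of IP signal over local input background at a peak. The deposited score is minus 10 times log10 of the p-value, and the false discovery rate is a deposited percent. A further table holds only the authors' own comparison of the groups (fold changes, p-values), and was not used.

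The members, gene lists and named genes were chosen with earlier results of these data known. Peaks were merged at 1 bp of overlap, and a region counts as a member by its gene symbol. Centres were placed on GENCODE M21 coding transcripts, and 7.90% of member peaks and 5.31% of others could not be placed. Medians and shares per library were compared by two-sided exact permutation, with Benjamini-Hochberg adjustment over each family of comparisons. Copies were searched with blastn 2.17.0 (95% identity). Named regions were those of the gene with most regions and of the highest region per family, the regions of 1 group only (up to 10) and the non-overlapping regions (up to 8 per direction). Functions were tested on simulated peak lists. Software was Python 3.11.15, numpy 2.4.6, pandas 2.3.3 and samtools 1.23.1. For the list of other RNA helicases, the levels of its region in all 4 libraries are not reported here.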

Additional observations from a re-analysis of the deposited data

How the results depend on the processing

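Of 292 alternative values for 32 results, 233 kept the direction (counts within 1.5 times), 22 moved further without turning and 37 turned. The results that turned under no alternative run numbered 17. Part of this tally was fixed in advance. Values of the replicate block equal the main difference by construction and are among the 233. Counts of regions have no direction to turn, so those results are among the 17 in any case. No exact p passed 0.05 under any setting, and none could, since the smallest was 0.125. Differences are starved minus control unless said otherwise.

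Among peaks with a false discovery rate under 20%, member peaks per library turned to 6, their share of the list to -0.0685 points, their median log2 fold enrichment to 0.065, the CDS share to -0.733 and the 3′UTR share to 0.062 points. In the same setting the family differences turned to -0.33 (Hnrnp), -0.25 (Rbm), -0.071 (Celf) and -0.12 (Ddx), members minus other genes to 0.020, and the stop codon share of members minus others to -1.15 points. It left 2 starved-only and 2 control-only member regions, against 561 and 374 over all regions. Of the 16 member regions in all 4 libraries it left 7 (43.75%) lower and 2 (12.5%) higher. Over all 997 such regions the shares were 22.6% and 20.2%. With at least 4-fold enrichment the share of the list was -0.00388 points, the median 0.072, the CDS share -1.74 points and Cnot 0.51. A score of at least 100 gave 0.485 points for the 3′UTR and -0.29 for Hnrnp, lists cut to 8974 peaks gave -0.0111 points for the share and -0.19 for Hnrnp, and 1 peak per gene gave a median of 0.026. A motif window of 100 bp gave 1.95 points for GGAC. Scaling each library to the median of regions in all 4 gave -0.64 for the 31 regions, with 12 lower and 2 higher, and leaving out near-identical copies gave 6 lower. These last alternatives were chosen after seeing the data. The cause of these turns was not tested.

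Leaving out 1 library at a time gave -0.0481 to 0.078 points for the share of the list, -0.083 to 0.064 for the median, -3.64 to 3.18 points for GGAC, -2.08 to 6.10 for the CDS and -1.07 to 5.31 for the stop codon share. For the families it gave -0.19 to 0.21 (Hnrnp), -0.11 to 1.26 (Celf), -0.0078 to 0.51 (Ddx), -0.29 to 0.95 (Dhx) and -0.88 to 0.13 (Cnot), and -0.155 to 2.02 points for the stop codon share of members minus others. Regions of 1 group only, which then need 1 library of a group in place of both, numbered 13 to 43 (starved) and 22 to 50 (control). Over all regions these counts were 1251 to 3724 and 1488 to 4093. Member regions in all remaining libraries without overlap numbered 17 to 22 (lower) and 8 to 14 (higher). The lower ones made up 44.7% to 52.5%, against 27.9% to 34.6% of all regions. The higher ones made up 22.2% to 31.1%, against 36.7% to 40.1% of all. Over all member regions in the remaining libraries the median log2 difference was -0.50 to -0.19, the smallest without control IP 2.

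The replicate block gives the same mean differences, such as -6.5 member peaks, with 0.5 as its smallest exact p. No effect shared by samples of the same replicate number was seen over the 2257 regions (correlation of deviations -0.0173). This cannot show whether those samples were prepared together, which the labels do not say. The lists hold no summit, so the summit could not replace the centre.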
